A study of Homo sapiens with 11 samples.

Results

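The genes described here are 8 sensors of RNA and factors of interferon signalling, chosen by name: DDX58 (current symbol RIGI), IFIH1, DHX58, EIF2AK2, STAT2, IRF1, IRF7 and IRF9. All probes annotated to them on a human bead array were taken, which gave 9 probes for 7 of the 8 genes, out of 20046 genes with a probe. The annotation used here names no probe for STAT2, which was not analysed here. The tumours were xenografts of A375, a human melanoma cell line, in CD1 athymic female mice implanted at 6 weeks of age, and each array held the RNA of a tumour taken after 12 days of treatment. COMBO mice (2 arrays) received both drugs, PLX4720 mice (3 arrays) received 60 mg/kg of that BRAF inhibitor daily by gavage in 1% methylcellulose, bevacizumab mice (3 arrays) received 10 mg/kg of that antibody against human VEGF by i.p. injection 3 times per week in 0.9% saline, and vehicle mice (3 arrays) received 1% methylcellulose. All 4 arms share a single cell line in an athymic host, so T cells of the host are lacking and the stroma is mouse, while the array was designed for human transcripts. All 7 genes with a probe were above background on at least 1 array and were tested among 14886 genes.

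RIG-I (encoded by RIGI) and MDA5 (encoded by IFIH1) are helicases of the cytosol that bind double-stranded RNA and signal through the adaptor MAVS to the kinases that activate IRF3 and IRF7, which turn on interferon genes. LGP2 (DHX58) is a related helicase that lacks the signalling domain and tunes the other sensors, and PKR (EIF2AK2) is a kinase that halts translation when it binds double-stranded RNA. Secreted type I interferon acts through its receptor and the Janus kinases to form a complex with STAT2 and IRF9 that binds interferon-stimulated response elements, and IRF1 is a factor best known from the response to interferon gamma. Most of these genes are themselves interferon-stimulated, so that the pathway raises its own components. BRAF is the kinase upstream of ERK that is mutated in many melanomas, A375 included.

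Promoter windows of the group are shown because several of its genes differed from vehicle together. RefSeq (GRCh38.p14) gave windows from 250 bases before to 50 bases after the start site for RIGI, IFIH1, EIF2AK2, STAT2, IRF1 and IRF9, of which all but STAT2 were measured. Capitals mark the letters matched by any of 3 short motifs, searched on both strands: AANNGAAA, the core that interferon regulatory factors contact, GAAANNGAAA, a stricter core of the interferon-stimulated response element whose every match also matches the first motif, and TTCNNNGAA, the gamma-activated site of STAT dimers. The motifs were chosen with these promoters in view. DHX58 lies at chr17:42101411-42112714 and IRF7 at chr11:612555-615950 of the same build.
RIGI (chr9:32526147-32526446, minus strand): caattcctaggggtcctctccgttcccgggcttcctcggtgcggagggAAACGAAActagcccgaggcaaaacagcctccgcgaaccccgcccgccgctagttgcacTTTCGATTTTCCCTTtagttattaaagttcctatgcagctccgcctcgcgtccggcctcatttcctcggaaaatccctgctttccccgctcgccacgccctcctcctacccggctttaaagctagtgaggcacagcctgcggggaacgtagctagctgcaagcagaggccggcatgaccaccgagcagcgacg
IFIH1 (chr2:162318635-162318934, minus strand): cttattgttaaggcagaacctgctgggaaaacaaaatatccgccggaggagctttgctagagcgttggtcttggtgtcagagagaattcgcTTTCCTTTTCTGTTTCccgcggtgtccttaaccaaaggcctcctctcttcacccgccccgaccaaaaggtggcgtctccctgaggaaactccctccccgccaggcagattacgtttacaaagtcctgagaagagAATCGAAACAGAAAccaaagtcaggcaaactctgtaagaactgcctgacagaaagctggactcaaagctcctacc
EIF2AK2 (chr2:37156931-37157230, minus strand): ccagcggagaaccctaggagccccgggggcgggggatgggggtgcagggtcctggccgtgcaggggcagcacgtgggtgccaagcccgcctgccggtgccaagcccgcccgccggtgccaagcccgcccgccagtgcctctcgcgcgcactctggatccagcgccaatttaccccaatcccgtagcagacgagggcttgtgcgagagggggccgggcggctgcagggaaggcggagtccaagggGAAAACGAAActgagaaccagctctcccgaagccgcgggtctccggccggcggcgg
IRF1 (chr5:132490724-132491023, minus strand): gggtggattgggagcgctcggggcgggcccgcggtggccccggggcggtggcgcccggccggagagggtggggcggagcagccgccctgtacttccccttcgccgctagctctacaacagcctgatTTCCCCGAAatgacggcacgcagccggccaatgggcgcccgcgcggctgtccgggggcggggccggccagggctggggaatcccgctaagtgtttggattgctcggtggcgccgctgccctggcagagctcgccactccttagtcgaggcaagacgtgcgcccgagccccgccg
IRF9 (chr14:24161015-24161314, plus strand): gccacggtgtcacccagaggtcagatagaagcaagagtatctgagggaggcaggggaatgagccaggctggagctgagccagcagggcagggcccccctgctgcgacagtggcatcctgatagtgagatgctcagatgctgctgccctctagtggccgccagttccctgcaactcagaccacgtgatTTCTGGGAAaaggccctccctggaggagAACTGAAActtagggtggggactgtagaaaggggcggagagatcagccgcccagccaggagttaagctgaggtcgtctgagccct
The windows of RIGI, IFIH1, EIF2AK2 and IRF9 held AANNGAAA, which makes 4 of the 6 windows, beside 22.8% of 35116 promoters of this length. GAAANNGAAA was found in 2 of the 6, those of IFIH1 and EIF2AK2, beside 3.57% of all promoters. In EIF2AK2 it began 6 bases before the start site and in IFIH1 the forward match began 21 bases before it. TTCNNNGAA was found in the windows of IRF1, 124 bases before the start, and of IRF9, 63 bases before it, which makes 2 of 6 beside 7.66% of all promoters. The window of STAT2, which was not measured but is among the 6, held none of the 3. A match describes the letters only.

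Values are log2 intensities after background correction and quantile normalisation, and a difference is tested with limma (moderated, two-sided, adjusted by Benjamini-Hochberg over all 14886 genes). Errors of a fold change are standard errors from that fit, which shares 1 estimate of the spread over the 4 arms. Between 19767 and 21952 of 47323 probes were above background on each array. Gene values of the vehicle arrays correlated with each other at 0.988 to 0.989, those of the COMBO arrays at 0.987, those of bevacizumab at 0.957 to 0.988 and those of PLX4720 at 0.926 to 0.941. On the second principal component over all genes, PLX4720 3 had a score of -75.4 and bevacizumab 1 of -37.5, apart from the other arrays of each arm. The melanoma markers SOX10, MITF, S100A1 and VIM were above background on all 11 arrays, whereas S100B and the pigment genes MLANA, TYR and TYRP1 were above it on none and PMEL was above it on 1, of PLX4720. In such bulk tissue fewer cells of a type and less RNA per cell cannot be told apart.

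The 3 RNA helicases were each higher in PLX4720 tumours than in vehicle tumours, by 3.25 to 5.29 times. On values normalised by the authors with a cubic spline this was 2.34 to 2.79 times, and RIGI was not called (limma, adjusted p = 0.0512). All 3 were high in COMBO tumours as well, while bevacizumab tumours lay near vehicle. RIGI read 8.32 and 7.73 in COMBO, 9.69, 8.85 and 7.50 in PLX4720, 5.45, 6.38 and 7.07 in bevacizumab, and 6.26, 6.35 and 6.22 in vehicle. Its lowest PLX4720 array lay above its highest vehicle array, and on bevacizumab 1 it was not above background. RIGI was higher in PLX4720 by 2.40 ± 0.52 on the log2 scale (adjusted p = 0.0401), a fold of 5.29 with a 95% interval of 2.40 to 11.6. IFIH1 read 9.39 and 9.14 in COMBO, 10.08, 9.59 and 8.44 in PLX4720, 7.23, 7.88 and 7.49 in bevacizumab, and 7.83, 7.82 and 7.37 in vehicle. No PLX4720 or COMBO array of IFIH1 overlapped with vehicle, and the difference of PLX4720 was 1.70 ± 0.37 (adjusted p = 0.0421), or 3.25 times (1.84 to 5.72).

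DHX58 showed the smallest adjusted p of the group. It read 8.84 and 8.37 in COMBO, 9.50, 9.08 and 8.43 in PLX4720, 7.70, 7.13 and 7.23 in bevacizumab, and 6.97, 7.38 and 6.49 in vehicle. PLX4720 raised it by 2.06 ± 0.33 (adjusted p = 0.0121), which is 4.16 times (2.53 to 6.84). Among the 14886 genes ordered by their log2 difference between PLX4720 and vehicle, RIGI was the 69th from the top, DHX58 the 107th and IFIH1 the 183rd. In all 3 genes PLX4720 1 was the highest array of its arm and PLX4720 3 the lowest.

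**Figure D1:**
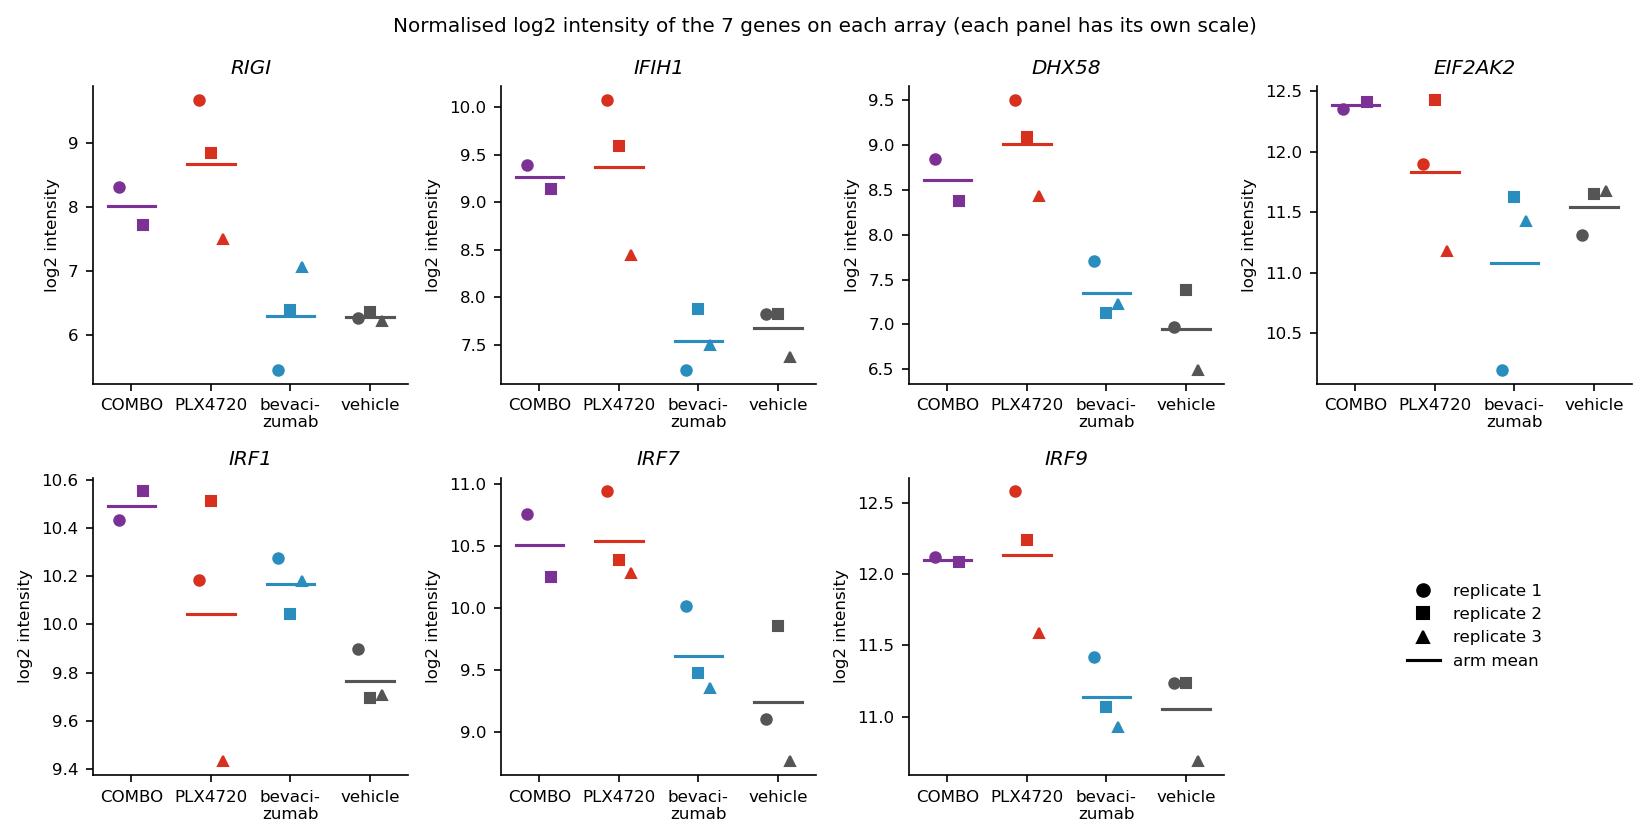
Normalised log2 intensity (y axis) of the 7 measured genes on each of the 11 arrays, by arm (x axis), with the replicate number as the symbol and the arm mean as a line. For RIGI, IFIH1, DHX58, IRF7 and IRF9 every COMBO and PLX4720 array lies above every vehicle array, and the panels for EIF2AK2 and IRF1 show PLX4720 3 below vehicle.

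The calls of RIGI and IFIH1 depended on which arrays were in the fit. Without PLX4720 3 the difference of RIGI was 2.99 (adjusted p = 0.00462) and that of IFIH1 was 2.16 (adjusted p = 0.00264). Leaving out bevacizumab 1 also kept both calls, whereas leaving out any other array ended them, with an adjusted p of 0.0502 to 0.165 for RIGI and 0.0556 to 0.189 for IFIH1. DHX58 lost its call only without vehicle 3 (difference 1.83, adjusted p = 0.0732), of the 11 arrays left out in turn. With only the PLX4720 and vehicle arrays in the limma fit, none of the 3 genes was called. The adjusted p was then 0.107 for RIGI, 0.153 for IFIH1 and 0.0722 for DHX58. The spread of the arms is unequal, with a standard deviation of RIGI of 1.10 in PLX4720 and 0.07 in vehicle. The normalisation moved the sizes as well. On the values normalised with a cubic spline by the authors, the differences of PLX4720 from vehicle were 1.48 for RIGI (2.79 times, adjusted p = 0.0512), 1.34 for DHX58 (2.53 times, adjusted p = 0.0152) and 1.23 for IFIH1 (2.34 times, adjusted p = 0.0465). Without background correction they were 1.43 for RIGI (2.70 times, adjusted p = 0.0607), 1.34 for DHX58 (2.54 times, adjusted p = 0.017) and 1.27 for IFIH1 (adjusted p = 0.0508).

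PKR differed in its pattern. EIF2AK2 read 12.35 and 12.41 in COMBO, 11.90, 12.43 and 11.18 in PLX4720, 10.20, 11.62 and 11.43 in bevacizumab, and 11.31, 11.65 and 11.68 in vehicle. PLX4720 arrays lay on both sides of the vehicle arrays, with PLX4720 2 the highest of all 11 and PLX4720 3 below all vehicle arrays. The difference of PLX4720 from vehicle was 0.29 ± 0.39 (adjusted p = 0.778), with a 95% interval of -0.58 to 1.16, and it was -0.0079 without PLX4720 2. Both COMBO arrays exceeded all vehicle arrays, with a difference of 0.84 ± 0.44 (adjusted p = 1).

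IRF9, the DNA-binding partner of STAT2, read 12.12 and 12.08 in COMBO, 12.59, 12.24 and 11.59 in PLX4720, 11.42, 11.06 and 10.93 in bevacizumab, and 11.24, 11.23 and 10.68 in vehicle. No array of PLX4720 or COMBO fell within the vehicle range, and the difference of PLX4720, 1.09 ± 0.28 or 2.12 times, had an adjusted p of 0.0808. IRF7, which drives interferon alpha genes, read 10.76 and 10.25 in COMBO, 10.94, 10.38 and 10.28 in PLX4720, 10.02, 9.47 and 9.35 in bevacizumab, and 9.10, 9.85 and 8.76 in vehicle. Its difference for PLX4720 was 1.30 ± 0.33 or 2.46 times, with an adjusted p of 0.0701, and the arrays of the arms did not overlap. IRF1 read 10.43 and 10.55 in COMBO, 10.19, 10.51 and 9.43 in PLX4720, 10.28, 10.04 and 10.18 in bevacizumab, and 9.90, 9.70 and 9.71 in vehicle. PLX4720 3 lay below all vehicle arrays of IRF1 and the others lay above them, and the difference was 0.28 ± 0.27 (adjusted p = 0.67). Bevacizumab differed from vehicle by 0.40 ± 0.27 for IRF1 (adjusted p = 1).

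Counted over the group, 3 of the 7 genes rose with PLX4720 at an adjusted p below 0.05, where 1.42% of all genes did, and none fell. The PLX4720 arrays lay wholly above vehicle for 5 of the 7, where 11.1% of all genes did. The median difference of the 7 was 1.30, beside 0.06 over all genes. At the limits the study's methods state, a log2 difference of at least 1 and an unadjusted p below 0.01, 5 of the 7 passed, where 4.76% of all genes did in either direction.

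IRF7 had 3 probes, and the values above are those of the brightest. The second probe was also above background on all 11 arrays, and the third on none. The second read 7.97 and 8.38 in COMBO, 8.12, 8.50 and 9.27 in PLX4720, 8.35, 6.96 and 7.19 in bevacizumab, and 7.29, 7.56 and 6.88 in vehicle. Both probes put every PLX4720 and COMBO array above every vehicle array. They ordered the PLX4720 arrays differently, since PLX4720 3 was the highest of its arm by the second probe and the lowest by the brighter one. The second probe gave a PLX4720 difference of 1.38 ± 0.40 (adjusted p = 0.106 over 20638 probes), beside 1.30 ± 0.33 (adjusted p = 0.067 over the same probes) for the brighter one.

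**Figure D2:**
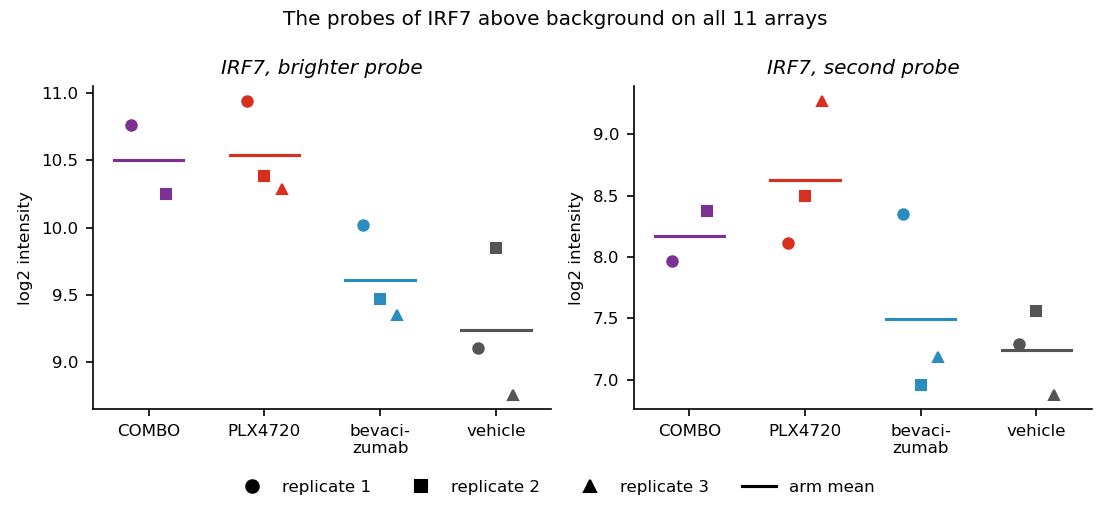
Normalised log2 intensity (y axis) of the brighter and the second probe of IRF7 on each array, by arm (x axis), with the replicate number as the symbol and the arm mean as a line. PLX4720 3 reads 10.28 by the brighter probe and 9.27 by the second, the lowest and the highest of its arm.

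With both drugs, all 7 genes were higher than in vehicle tumours, and none passed the adjusted threshold. The COMBO differences were 1.75 ± 0.58 for RIGI, 1.59 ± 0.42 for IFIH1 and 1.66 ± 0.37 for DHX58. They were 1.26 ± 0.36 for IRF7, 1.05 ± 0.32 for IRF9 and 0.73 ± 0.30 for IRF1. Adjusted p ran from 0.172 for DHX58 to 1 for EIF2AK2, and 6 of the 7 had an unadjusted p below 0.05, where 5.23% of all genes did. Neither COMBO array overlapped with vehicle in any of the 7, where 16.8% of all genes were higher without overlap and 0.121% were called higher. With array weights in limma, which lower the weight of discordant arrays, 6 of the 7 passed, EIF2AK2 being the other, where 2.70% of all genes passed in either direction. Without PLX4720 3, 1 of the 7 passed for COMBO, IFIH1 (1.59, adjusted p = 0.0371), where 0.484% of all genes did.

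**Figure D3:**
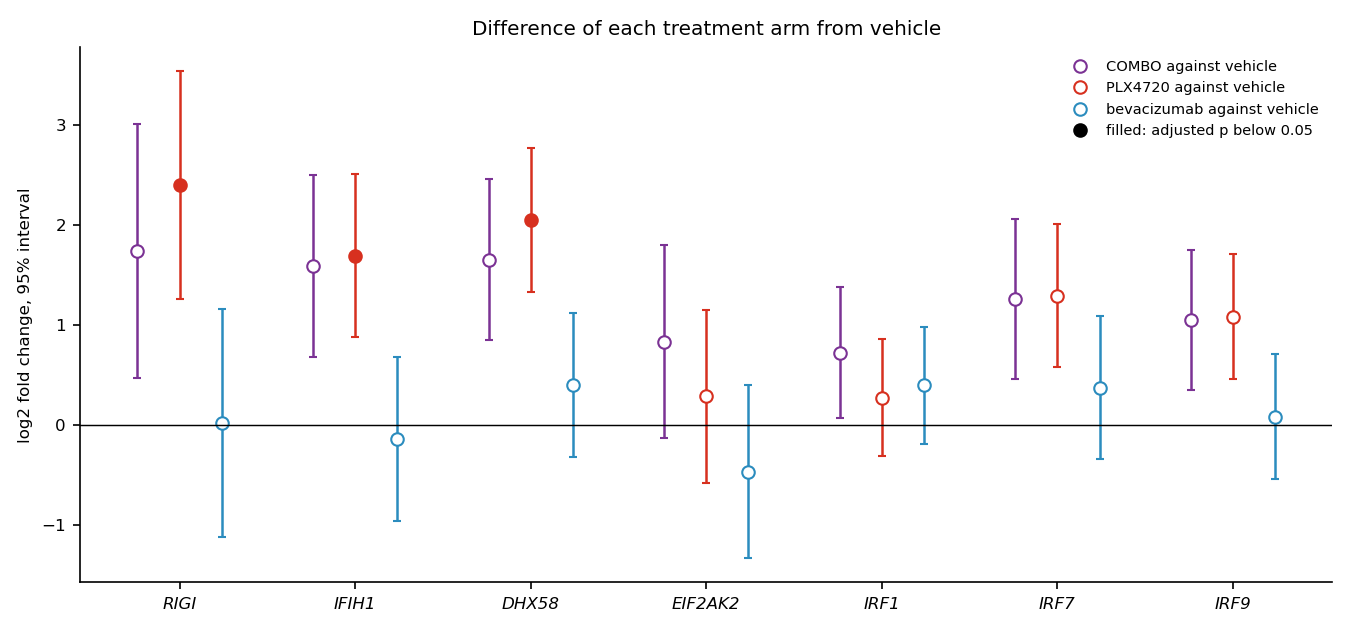
Log2 fold change against vehicle (y axis) of the 7 genes (x axis) for COMBO, PLX4720 and bevacizumab, with 95% intervals from the limma fit and filled points at an adjusted p below 0.05. The filled points are RIGI, IFIH1 and DHX58 under PLX4720, at 2.40, 1.70 and 2.06, while the bevacizumab points lie between -0.46 and 0.40.

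Bevacizumab alone moved none of the 7 past the threshold (limma, 0 at an adjusted and 0 at an unadjusted p below 0.05), where 0.00% of all genes were called and 2.37% had an unadjusted p below 0.05. The differences from vehicle were -0.46 to 0.40, and the 95% interval of RIGI, -1.12 to 1.16, was the widest of the 7. Adding bevacizumab to PLX4720 gave differences of COMBO from PLX4720 between -0.66 for RIGI and 0.55 for EIF2AK2, with 0 of 7 called where 0.00672% of all genes were. The intervals of these differences reached from -1.93 to 0.62 for RIGI and from -0.42 to 1.52 for EIF2AK2, so that the size of the change stays uncertain over those ranges.

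PLX4720 was given with and without bevacizumab, and the arrays of these contrasts are separate. COMBO exceeded bevacizumab by 1.72 ± 0.58 for RIGI, 1.73 ± 0.42 for IFIH1 and 1.25 ± 0.37 for DHX58, beside the 2.40, 1.70 and 2.06 by which PLX4720 exceeded vehicle. For IRF9 the values were 0.96 ± 0.32 with bevacizumab and 1.09 ± 0.28 without it, for IRF7 0.89 ± 0.36 and 1.30 ± 0.33, and for IRF1 0.33 ± 0.30 and 0.28 ± 0.27. EIF2AK2 had the least similar values, 1.30 ± 0.44 with bevacizumab and 0.29 ± 0.39 without it. None of the 7 was called in COMBO against bevacizumab, where 0.235% of all genes were called higher, although the arrays of all 7 did not overlap, where 14.8% of all genes were higher without overlap. The difference of the differences was tested as an interaction of the drugs and reached the threshold in 0 of the 7 (limma, also 0 at an unadjusted p below 0.05), where 0.00672% of all genes did and 5.54% had an unadjusted p below 0.05. It was 1.01 ± 0.59 for EIF2AK2 (adjusted p = 0.869) and -0.80 ± 0.49 for DHX58 (adjusted p = 0.869).

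**Figure D4:**
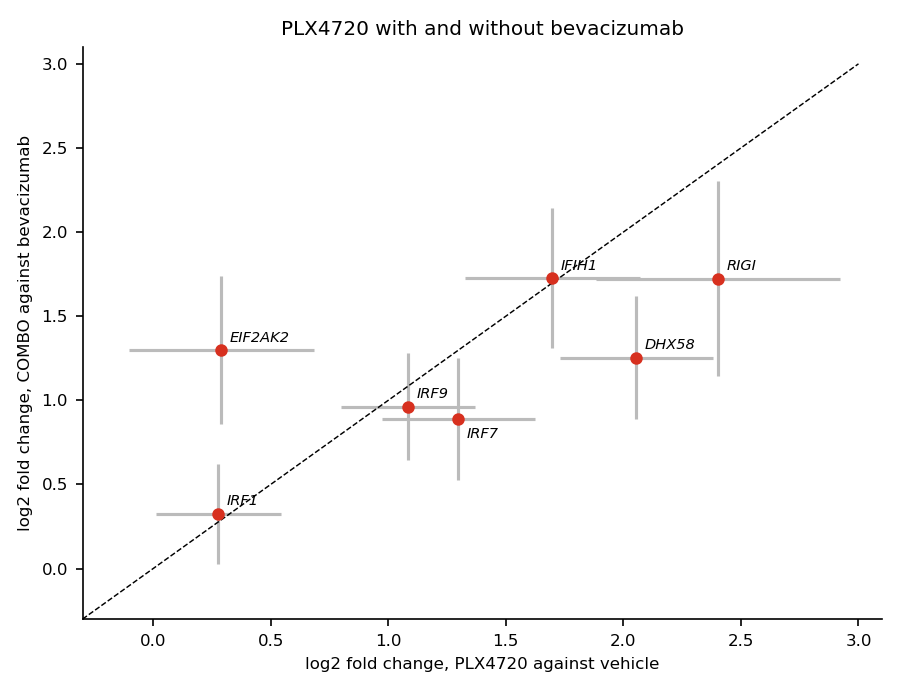
Log2 fold change of COMBO against bevacizumab (y axis) set against that of PLX4720 against vehicle (x axis) for the 7 genes, with standard errors and the line of equal values dashed. EIF2AK2 lies at 1.30 and 0.29, above the line, and RIGI and DHX58 lie below it.

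Averaged over the presence and absence of bevacizumab, PLX4720 raised 5 of the 7 genes, where 2.16% of all genes were called higher. The average effect was 2.06 ± 0.39 for RIGI (adjusted p = 0.0156), 1.71 ± 0.28 for IFIH1 (adjusted p = 0.00703) and 1.66 ± 0.24 for DHX58 (adjusted p = 0.00442). It was 1.09 ± 0.24 for IRF7 (adjusted p = 0.0348) and 1.02 ± 0.21 for IRF9 (adjusted p = 0.0255). EIF2AK2 had 0.79 ± 0.30 (adjusted p = 0.216) and IRF1 0.30 ± 0.20 (adjusted p = 0.557). With any one of the 11 arrays left out IFIH1 and DHX58 still passed, with an adjusted p of at most 0.047 and 0.0328. RIGI lost the call without COMBO 1 (adjusted p = 0.0911) or COMBO 2 (adjusted p = 0.0538), and IRF9 without COMBO 1, COMBO 2, bevacizumab 2, bevacizumab 3 or any vehicle array (0.0509 to 0.12). IRF7 lost it without COMBO 1, COMBO 2, PLX4720 1, bevacizumab 2, bevacizumab 3, vehicle 1 or vehicle 3 (0.0664 to 0.178). By its second probe IRF7 had an average effect of 1.03 and an adjusted p of 0.101. A moderated F test over the 4 arms, read at an adjusted p below 0.1, called DHX58 (0.023), IFIH1 (0.0405) and RIGI (0.0645), 3 of the 7, where 2.81% of all genes were called.

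The mean of the 7 genes, set against its mean over vehicle, was 1.39 and 1.15 in COMBO, 1.77, 1.51 and 0.62 in PLX4720, -0.03, 0.16 and 0.17 in bevacizumab, and 0.01, 0.21 and -0.23 in vehicle. PLX4720 3 was the lowest array of the 5 that received PLX4720. Across the 11 arrays, which share their arms and are described here with no test, Pearson's r between genes was 0.97 for DHX58 and IRF9, 0.96 for DHX58 and IRF7, and 0.95 for RIGI and IFIH1. After the arm means were taken out, r was 0.91 for DHX58 and IRF9, 0.90 for DHX58 and IRF7, 0.83 for RIGI and IFIH1, and 0.43 for RIGI and DHX58. EIF2AK2 went with RIGI within arms (r = 0.70) more than with DHX58 (r = -0.04) or IRF7 (r = -0.25). The genes whose values over the 11 arrays were most like the mean profile of the 7, by Pearson's r among all other genes tested, were MX1 (0.98), TRIM22 (0.98), OAS2 (0.98), PARP9 (0.98) and RSAD2 (0.97). By deviations from the arm means they were ZNF419 (0.99), H2BC21 (0.98), PML (0.98), IFIT2 (0.97) and CSGALNACT1 (0.97).

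Upstream of the group, the ligands and receptors gave no call under PLX4720, where 339 of 14886 genes were called in either direction. In lists this short, the lack of a call does not set the genes apart from all genes. Of 21 interferon genes on the array 4 were above background on any array and none was called under PLX4720. IFNB1 was above background on none, and IFNE, an interferon of epithelia, differed from vehicle by 1.13 ± 0.52 under PLX4720 (adjusted p = 0.326). Among 9 receptor subunits and Janus kinases none was called, with a median of 0.05. The receptor subunit IFNAR1 differed by 0.40 and IFNAR2 by -0.24. The kinase TYK2 had the smallest p of that list, at 0.37 ± 0.20 (adjusted p = 0.419).

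The signalling steps next to the group gave no call under PLX4720 either, where 339 of 14886 genes were called in either direction. These lists are also too short for the lack of a call to set them apart from all genes. This held for 15 sensing adaptors and kinases (median 0.23), 5 STATs (median 0.42), 5 other IRFs (median 0.03), 5 genes of DNA sensing (median -0.0038) and 6 genes of the eIF2 alpha step, on which PKR acts (median 0.20). MAVS, the adaptor of RIG-I and MDA5, differed by 0.49 ± 0.44 (adjusted p = 0.64), and MYD88, a Toll-like receptor adaptor, by 0.84 ± 0.28 (adjusted p = 0.166). IRF3 differed by 1.03 ± 0.43 under PLX4720 (adjusted p = 0.27) and by -0.05 ± 0.48 in COMBO. IFI16, a DNA sensor, differed by 0.97 ± 0.34 (adjusted p = 0.192), and EIF2AK3 (PERK), another kinase of eIF2 alpha, by 0.69 ± 0.29 (adjusted p = 0.272).

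Over all 14886 genes, 212 (1.42%) were called higher and 127 lower under PLX4720, and 0.121% were called higher in COMBO. Downstream, 17 of 29 interferon-stimulated targets rose under PLX4720 and none fell, with a median of 2.20. Those with the smallest p were ISG15, a ubiquitin-like modifier (3.37 ± 0.38, adjusted p = 0.00261), IFI6 (2.82 ± 0.41), RSAD2, the antiviral enzyme viperin (2.86 ± 0.42), and IFI27 (5.74 ± 0.85). In COMBO 1 of the 29, ISG15, was called (3.04 ± 0.43, adjusted p = 0.029), and the median was 2.0. Of 16 targets of interferon gamma and IRF1, 2 rose under PLX4720, with a median of 0.84. These were the chemokine CXCL10 (3.30 ± 0.40, adjusted p = 0.00317) and CASP1, which was above background on no vehicle array and was at least 3.32-fold higher in PLX4720 (adjusted p = 0.00442). CXCL10 was also called in COMBO (3.04 ± 0.44, adjusted p = 0.029). Among 18 negative regulators, 2 rose and 1 fell. USP18, which removes ISG15 and blocks the interferon receptor, rose by 1.80 ± 0.40 (adjusted p = 0.0463), TNFAIP3, an inhibitor of NF-kB, rose by 1.89 ± 0.42 (adjusted p = 0.0448), and PIAS2, a SUMO ligase, fell by 1.25 on the log2 scale (SE 0.24, adjusted p = 0.0279). Of 19 other helicases of the DExD/H-box family, 2 rose under PLX4720 and none fell, with a median of 0.11. DDX60, which has been linked to RIG-I signalling, rose by 1.84 ± 0.39 (adjusted p = 0.038) and DDX60L by 1.71 ± 0.34 (adjusted p = 0.0288).

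**Figure D5:**
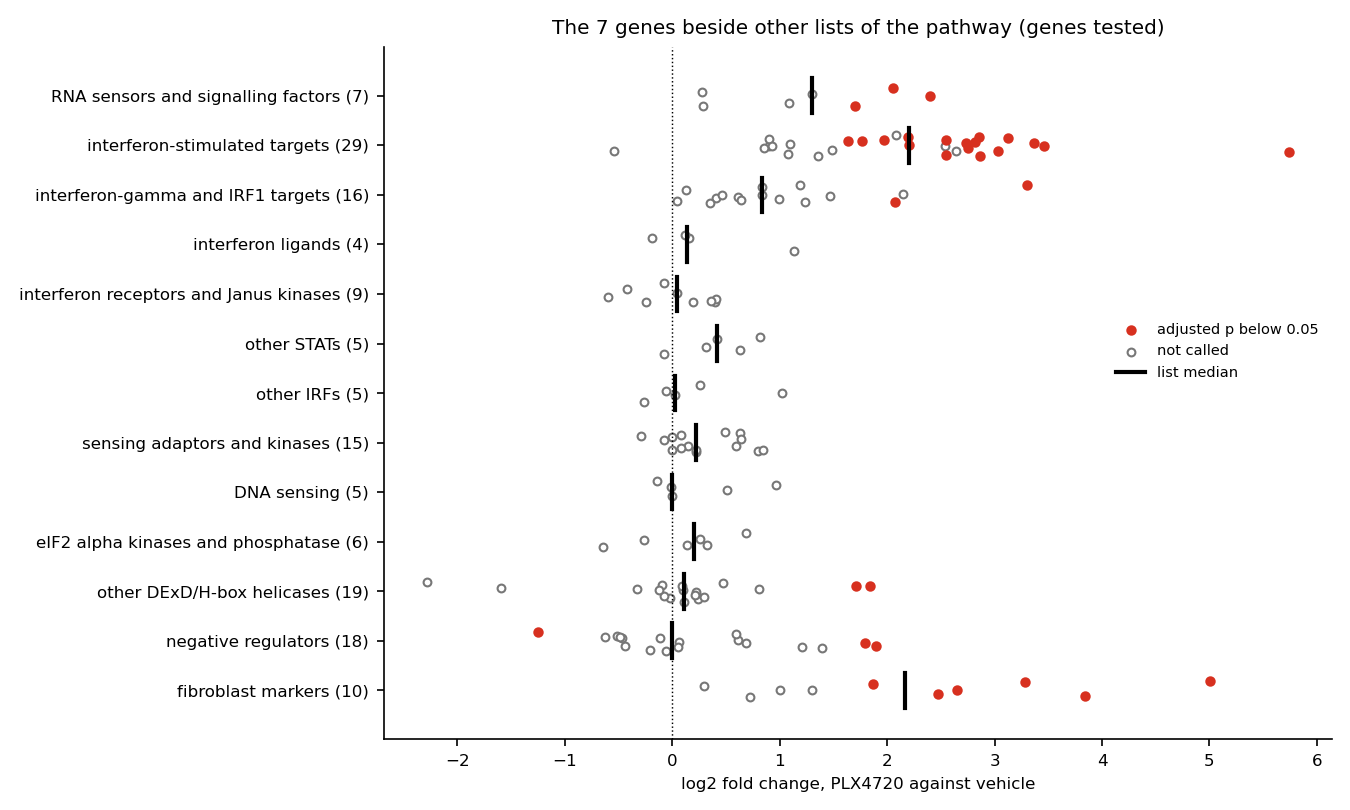
Log2 fold change of PLX4720 against vehicle (x axis) for the genes tested in each list (y axis, number of genes in parentheses), with called genes filled and list medians as bars. The 7 genes have a median of 1.30, the interferon-stimulated targets 2.20 and the fibroblast markers 2.17, and the 10 other lists lie between -0.0038 and 0.84.

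Most markers of fibroblasts were also higher than vehicle in the arms that received PLX4720. Of 11 listed, 10 were tested and 6 rose under PLX4720, where 1.42% of all genes did, with a median of 2.17. Their summed intensity was 12360 to 26450 in COMBO, 24380 to 51240 in PLX4720, 4801 to 7903 in bevacizumab and 7306 to 11600 in vehicle. POSTN, a matrix protein, was 3.84 ± 0.38 above vehicle in PLX4720 and 3.01 ± 0.42 in COMBO. In COMBO 7 of the 10 markers lay above vehicle and 1 was called higher, where 0.121% of all genes were, with a median of 1.80. Against PLX4720, COMBO had a median of -0.83 for the markers, with 0 of the 10 higher, and of -0.04 for the 7 genes. The part of fibroblasts, whose RNA in these tumours would be of the mouse, in the values of the 7 genes was not tested. Binding of mouse RNA to the human probes, of the markers or of the 7 genes, was not tested either. Whether the A375 cells themselves expressed the markers was also not tested. The study reports that PLX4720 alone raised human genes of extracellular matrix organisation. In bevacizumab the 10 markers had a median of -0.67 and the 7 genes a median of 0.09. Of the leukocyte markers, 11 of 16 were tested and 1 rose (AIF1, 1.90 ± 0.31), and their summed intensity was 5972 to 6259 in COMBO, 4627 to 7951 in PLX4720, 6183 to 10820 in bevacizumab and 7681 to 8530 in vehicle, with PTPRC and CD3E above background on no array. Of 7 endothelial and pericyte markers 1 rose (RGS5, 2.82 ± 0.60), and CDH5, KDR and VWF were above background on no array. None of 11 genes of RNA handling stress was called, and their median against vehicle was 1.39 on PLX4720 2 and -0.33 on PLX4720 3.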

How the data were processed

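Illumina human bead arrays (HumanHT-12 v4) were hybridised by the authors with labelled RNA of A375 xenografts, and the study calls the replicates biological. For every probe the deposited table gives the linear intensity before normalisation and a detection p-value, which sets the probe against an array's own negative control beads. Another deposited table, used here as an alternative, gives intensity values after cubic spline normalisation by the authors. The submitters' processing notes name GenomeStudio 2011.01. Arms and replicate numbers came from the sample titles, and gene names from the platform annotation (30113 of 47323 probes had 1 symbol), updated through RefSeq (GRCh38.p14), which also gave the promoters.

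Intensities were corrected with normexp, using the detection p-values in place of negative controls, then offset by 16, quantile normalised and converted to log2 values (limma 3.58.1, R 4.3.3). Probes with a detection p-value below 0.05 on at least 1 array were kept, and the probe with the largest mean stood for its gene, as in the study's methods. A model of the 4 arms was fitted to 11 arrays, with 7 contrasts and an F test, and p-values were adjusted by Benjamini-Hochberg over 14886 genes. The limma step was also run on simulated data in which all arms shared the spread of a gene. The shifts put in were larger than most of the PLX4720 differences of the members. That run therefore does not bear on the unequal spread of the arms here or on the smaller differences. Where a probe was above background on no vehicle array, the fold is a bound, the mean of the brighter arm over the mean, per vehicle array, of the lowest signal above background or the probe's own if higher. The number of arrays limits the precision. The plots used Python 3.11.15 and matplotlib 3.10.9.

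All members are named with every probe. From each of 11 further pathway lists, up to 4 called genes with the smallest p were named, or up to 2 where none was called, beside IRF3, IFNAR1, IFNAR2, MAVS, IFNB1 and USP18, which were always looked up. A further 5 lists hold markers of cell types and RNA handling. The members and lists were chosen with earlier results of these data known. Mouse arrays were not analysed here.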

Additional observations from a re-analysis of the deposited data

How the results depend on the processing

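Across 25 alternatives (24 planned, and IRF7 by its second probe, chosen after seeing the data), beside the limits of the methods for counts, no member difference changed sign while called. Signs changed in 40 of 1169 recomputed values, none of them called, in 10 of the 49 differences. With PLX4720 against vehicle, 3 of the 7 genes were called, against 1 without background correction, 1 without a filter on detection (more genes tested), 0 with only the arrays compared (fewer samples), 5 at the limits of the methods and 5 without PLX4720 3 and bevacizumab 1. For COMBO against vehicle, 0 were called, against 3 with only the arrays compared, 6 with array weights, 4 at the limits of the methods and 1 without the same pair of arrays. For COMBO against bevacizumab, 0 were called, against 6 with array weights, 2 at those limits and 1 without that pair. The F test called 3, against 7 with array weights and 5 without that pair. Over all genes array weights raised the calls as well, from 54 to 862 for COMBO against bevacizumab. For the F test the calls over all genes rose from 418 to 1481 with array weights. Leaving out each array in turn gave 0 to 4 calls for PLX4720 against vehicle, 0 to 1 for COMBO against vehicle, 0 to 1 for COMBO against bevacizumab, 2 to 5 for the average PLX4720 effect, where 5 were called, and 1 to 4 for the F test. When a COMBO array was left out, the other was assumed to vary like the other arms. Bevacizumab against vehicle, COMBO against PLX4720 and the interaction gave 0 calls in every alternative. The cause of these shifts was not tested, and the words in brackets only describe the setting. DHX58 passed for PLX4720 in 22 of the 24 alternatives that bear on it, IFIH1 in 11 and RIGI in 10, with differences of RIGI from 1.43 to 2.99. Over all genes the count for PLX4720 against vehicle was 339, and 45 with only the arrays compared to 1247 without the pair. For COMBO it was 21, and 1 without COMBO 1 to 402 with array weights.

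Arrays share replicate numbers, and with the replicate block 1 of 7 genes was called for PLX4720 against vehicle and 3 for the average effect. Over all genes this block gave 190 calls for PLX4720 against vehicle and 309 for the average effect. Deviations from the arm means correlated at -0.472 to 0.266 for same-numbered arrays, with 3 of 15 pairs over 0.1. For other pairs they correlated at -0.479 to 0.626, with 8 of 30 over 0.1, the highest being PLX4720 3 with bevacizumab 1. Deviations within an arm cancel out, so these correlations are not independent and cannot decide whether the numbers pair the arrays.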
